A study of Homo sapiens with 2 samples.

Results

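A group of 8 mature microRNAs was examined whose production skips, or is thought to skip, the nuclear nuclease Drosha. They are hsa-miR-320a-3p, hsa-miR-320b, hsa-miR-320c and hsa-miR-320d of the miR-320 family, hsa-miR-484, and the mirtron products hsa-miR-877-5p, hsa-miR-877-3p and hsa-miR-1226-3p. They were picked by name and by no cut on their values, though with earlier results of these data known. All 8 were found among the 2656 mature microRNAs of the table. The counts come from MDA-MB-231, an established human line of triple-negative breast cancer. One culture carried an shRNA against the fatty acid elongase ELOVL5 (shELOVL5), the other the control shRNA shLuc, and each gave 1 small RNA library. Both cultures thus carried an shRNA, and no cells without one were compared. The labels give neither the number of shRNA sequences nor the time after transduction, and ELOVL5 mRNA was not measured in these libraries, so the knockdown was not checked here.

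Most microRNA hairpins are cut out of a long primary transcript by Drosha with its partner DGCR8, exported to the cytoplasm and cut again by Dicer. A mirtron is a short intron that folds into the hairpin itself, so the splicing machinery and not Drosha sets its ends. The precursor of miR-320a is known to begin at a transcription start, to carry a cap and to go straight to Dicer, and miR-484 is described as independent of the Drosha complex as well. For miR-320b, miR-320c and miR-320d the grouping rests on their likeness to miR-320a, and none of these routes was measured in these libraries.

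The sequences are shown because the group divides into a family of near-identical members and a set of unrelated ones. Mature sequences were found for 7 of the 8 in a RefSeq table on GRCh38.p14. They run 5′ to 3′, with the seed (bases 2 to 8, the part that pairs with targets) in capitals.
hsa-miR-320b: aAAAGCUGgguugagagggcaa
hsa-miR-320c: aAAAGCUGgguugagagggu
hsa-miR-320d: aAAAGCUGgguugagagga
hsa-miR-484: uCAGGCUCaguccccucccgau
hsa-miR-877-5p: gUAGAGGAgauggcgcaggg
hsa-miR-877-3p: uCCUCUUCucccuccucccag
hsa-miR-1226-3p: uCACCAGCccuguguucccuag

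The 3 miR-320 sequences share 1 seed and part only near the 3′ end. Counted from 1 at the 5′ end, hsa-miR-320b and hsa-miR-320c are the same over 19 bases and differ by C20U. hsa-miR-320d matches each of them over 18 bases and differs by G19A. A read that stops before those positions fits more than 1 of them, so the counts of these members are not separate measurements. The seeds of miR-484, of the 2 arms of miR-877 and of miR-1226 differ from that of miR-320 and from each other. GC content lay between 47.4% and 65.0% in the 7 sequences, against a median of 52.2% over the 2367 microRNAs of the table that have a sequence.

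The mirtron hairpins are shown whole, since their ends are what makes them mirtrons, with the first and last 2 bases in capitals.
MIR877, chr6:30584332-30584417, plus strand: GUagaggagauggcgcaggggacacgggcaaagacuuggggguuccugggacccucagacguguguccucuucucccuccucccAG
MIR1226, chr3:47849555-47849629, plus strand: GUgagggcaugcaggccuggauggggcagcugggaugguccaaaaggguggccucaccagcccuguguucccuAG

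Both hairpins start with GU and end with AG, the letters at the ends of most introns. Each has exactly the start and end of an intron in GENCODE release 29. The intron of MIR877 belongs to ABCF1, which codes for an ATP-binding protein of translation initiation, and that of MIR1226 to DHX30, which codes for an RNA helicase. Of 1562 hairpins in the RefSeq table, 36 (2.30%) have both end letters and 23 (1.47%) have the exact ends of an annotated intron. hsa-miR-877-5p occupies bases 1 to 20 of its 86-base hairpin and hsa-miR-877-3p bases 66 to 86, so the 2 arms reach both splice sites. hsa-miR-1226-3p occupies bases 54 to 75 of 75 and ends on the last base of its intron.

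The other loci lie in different surroundings. MIR484 (chr16:15643294-15643372, plus strand) overlaps an exon of NDE1 that is annotated as untranslated. Its first base lies 27 bases after an annotated NDE1 transcript start and 128 bases from a start of MARF1, which runs the other way. MIR320A, on chromosome 8, lies in no annotated gene of its strand, and its first base is 67 bases from a start of POLR3D, again running the other way. POLR3D codes for a subunit of RNA polymerase III. Among the 1562 hairpins, which do not include MIR320A, 106 (6.79%) begin within 200 bases after a start on their own strand. Within 200 bases of a divergent start, running the other way, begin 30 (1.92%). The 6 loci of miR-320b, miR-320c and miR-320d have no such neighbour, the nearest annotated start of either strand being 3094 bases or more away. They are MIR320B1 (chr1:116671746-116671817, plus strand), MIR320B2 (chr1:224257040-224257110, minus strand, in an intron of NVL), MIR320C1 (chr18:21683518-21683589, plus strand), MIR320C2 (chr18:24321675-24321746, plus strand), MIR320D1 (chr13:40727816-40727887, minus strand) and MIR320D2 (chrX:140926160-140926231, minus strand). MIR320C1 and MIR320C2 lie opposite to ABHD3 and OSBPL1A.

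The libraries held 6811811 microRNA counts in shELOVL5 and 7109272 in shLuc. hsa-miR-21-5p and hsa-miR-100-5p, known to be high in this line, took the first 2 ranks in both. Of the epithelial microRNAs listed as low in it, hsa-miR-141-3p had 7 and 3 counts, but hsa-miR-200c-3p had 450 and 467, a mean of 65.9 counts per 1000000 before scaling, which is above the expression limit of 50. CPM denotes counts per 1000000 after TMM scaling, a ratio is shELOVL5 over shLuc, and brackets give 95% counting intervals. Each condition has 1 library, so the spread between cultures is unknown and no test was made. Where an interval leaves out 1, the 2 libraries differ beyond counting error, which does not show that the conditions differ.

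The 8 members ranged from rank 42 (hsa-miR-320a-3p) to rank 393 (hsa-miR-1226-3p) in shELOVL5 and from rank 40 to rank 368 in shLuc. Together they had 31515 counts in shELOVL5, or 0.463% of that library, and 35166 in shLuc, or 0.495%. hsa-miR-320a-3p, hsa-miR-484, hsa-miR-320b, hsa-miR-877-5p and hsa-miR-320c were expressed, meaning a mean of at least 50 CPM before scaling and at least 100 counts over both libraries. hsa-miR-320c was nearest above that limit, at a mean of 82.2, and hsa-miR-320d nearest below it, at 39.8. With precursor rows summed, in place of the highest row kept per microRNA, hsa-miR-320d stood at 59.0 and passed. A read counted in both rows would enter such a sum more than once, so that value may be inflated. hsa-miR-877-3p and hsa-miR-1226-3p lay well under it, at 9.96 and 5.09.

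hsa-miR-320a-3p was first of the 8 in both libraries, followed by hsa-miR-484 and hsa-miR-320b. The order then differed. In shELOVL5, hsa-miR-877-5p stood above hsa-miR-320c by a factor of 1.29 (1.15 to 1.44), whereas in shLuc hsa-miR-320c had 1.02 times (0.904 to 1.14) the counts of hsa-miR-877-5p, and the 2 could not be told apart. This change of order depends on how precursor rows are joined. With rows summed, hsa-miR-320c (1110 and 1170 counts) stood above hsa-miR-877-5p (719 and 578) in both libraries. The 2 rows of hsa-miR-320c were nearly level, at 552 and 558 counts in shELOVL5 and 583 and 587 in shLuc. Reads counted in both rows would enter their sum more than once, so it may be inflated. With the highest row kept, every other pair of neighbours in the order differed beyond counting error in each library. hsa-miR-320d, hsa-miR-877-3p and hsa-miR-1226-3p closed the order in both.

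**Figure D1:**
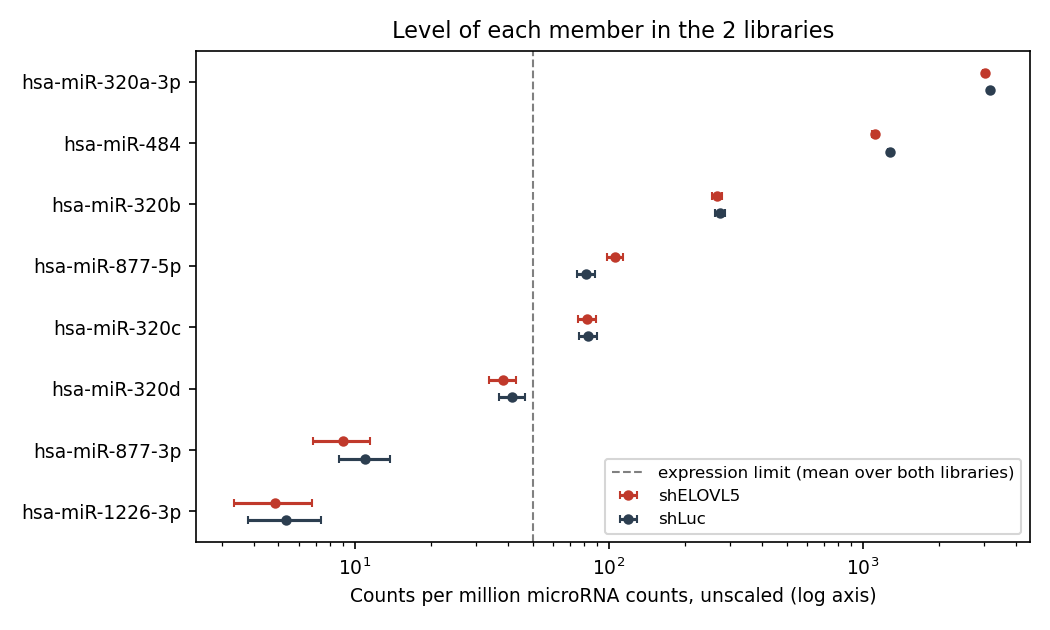
Level of the 8 members in shELOVL5 (red) and shLuc (dark blue), in counts per 1000000 microRNA counts before scaling, on a log axis. Points are the 2 libraries, bars are 95% exact binomial counting intervals, and the dashed line is the expression limit of 50. The intervals of the 2 libraries are apart for hsa-miR-320a-3p, hsa-miR-484 and hsa-miR-877-5p and overlap for the other 5.

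The miR-320 family was slightly lower in the ELOVL5 shRNA library. In shELOVL5 hsa-miR-320a-3p, the main family member, was counted 20501 times (2972 CPM), against 22565 times (3214 CPM) in shLuc. Its ratio was 0.925 (0.908 to 0.943), so the shLuc library was higher by 1.08-fold. This ratio lay at percentile 36.6 of those of the 191 expressed microRNAs. For hsa-miR-320b there were 1817 and 1945 counts, and the ratio was 0.951 (0.892 to 1.01). For hsa-miR-320c, with 558 and 587 counts, it was 0.968 (0.860 to 1.09). For hsa-miR-320d, with 260 and 295, it was 0.897 (0.757 to 1.06). All 4 ratios lay below 1, as did those of 57.1% of the 191 expressed microRNAs, and the intervals of miR-320b, miR-320c and miR-320d include 1. That of hsa-miR-320b does so narrowly. Its ratio was 0.934 with DESeq2 size factors (1 in both libraries), 0.922 with precursor rows summed and 0.975 with library totals. No intervals were computed for these. Whether its interval includes 1 may thus depend on these choices.

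Summed over the 4, the family had 23136 counts (3354 CPM) in shELOVL5 and 25392 (3616 CPM) in shLuc, a ratio of 0.928 (0.911 to 0.944). Since most of this sum is hsa-miR-320a-3p, the sum of the other 3 was also taken, at 2635 and 2827 counts and a ratio of 0.949 (0.899 to 1.00). As counted, the make-up of the family differed by less than counting error. hsa-miR-320a-3p took 88.6% (88.2 to 89.0%) of the family counts in shELOVL5 and 88.9% (88.5 to 89.3%) in shLuc. hsa-miR-320b took 7.85% (7.51 to 8.21%) and 7.66% (7.34 to 7.99%), hsa-miR-320c 2.41% and 2.31%, and hsa-miR-320d 1.12% and 1.16%. These levels depend on the precursor row kept, and with rows summed hsa-miR-320b took 12.6% in each library, hsa-miR-320c 4.39% and 4.21%, and hsa-miR-320d 1.89% and 1.96%. Reads counted in both rows of a microRNA would raise these summed shares.

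A ratio between members does not depend on how the libraries are scaled. Per 100 counts of hsa-miR-320a-3p there were 8.86 of hsa-miR-320b in shELOVL5 and 8.62 in shLuc, a ratio of these of 1.03, with a lower limit of 0.961 and an upper limit below that of hsa-miR-320c. The same measure was 1.05 (0.929 to 1.18) for hsa-miR-320c and 0.970 (0.817 to 1.15) for hsa-miR-320d. All 3 intervals include 1, and for each member a difference inside its own interval was not detectable at this depth. The intervals take the counts of the members as separate. A read counted for more than 1 member would draw these ratios towards 1, and how such reads were counted is not given in the sources used here. These ratios therefore do not settle whether the make-up was the same.

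Each of miR-320b, miR-320c and miR-320d is encoded at 2 loci, and the table counts each locus apart. The mature parts are the same, so only bases outside them can separate the loci. They are shown with the mature part in lower case and the next 6 bases of the hairpin in capitals.
MIR320B1, chr1:116671787-116671814, plus strand: aaaagcuggguugagagggcaaACAAAU
MIR320B2, chr1:224257043-224257070, minus strand: aaaagcuggguugagagggcaaAAGGAA
MIR320C1, chr18:21683559-21683584, plus strand: aaaagcuggguugagaggguAGAAAA
MIR320C2, chr18:24321716-24321741, plus strand: aaaagcuggguugagaggguAAGAAA
MIR320D1, chr13:40727822-40727846, minus strand: aaaagcuggguugagaggaUGAAAA
MIR320D2, chrX:140926166-140926190, minus strand: aaaagcuggguugagaggaGCAGAA

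The copies of hsa-miR-320b were counted unequally. The first precursor had 1817 counts in shELOVL5 and 1945 in shLuc, and the second had 1374 and 1565. The second was thus 24.4% lower than the first in shELOVL5 and 19.5% lower in shLuc. Taken alone, the second precursor had a ratio of 0.894 (0.831 to 0.962), whose interval leaves out 1, unlike the 0.951 of the first. For hsa-miR-320c the precursors had 552 and 558 counts in shELOVL5 and 583 and 587 in shLuc, a difference of at most 1.08%. For hsa-miR-320d they had 260 and 219 counts in shELOVL5 and 295 and 251 in shLuc, the second being lower by 15.8% and 14.9%. How reads that fit both copies were shared out is not given in the sources used here, so these rows do not measure the activity of each locus.

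**Figure D2:**
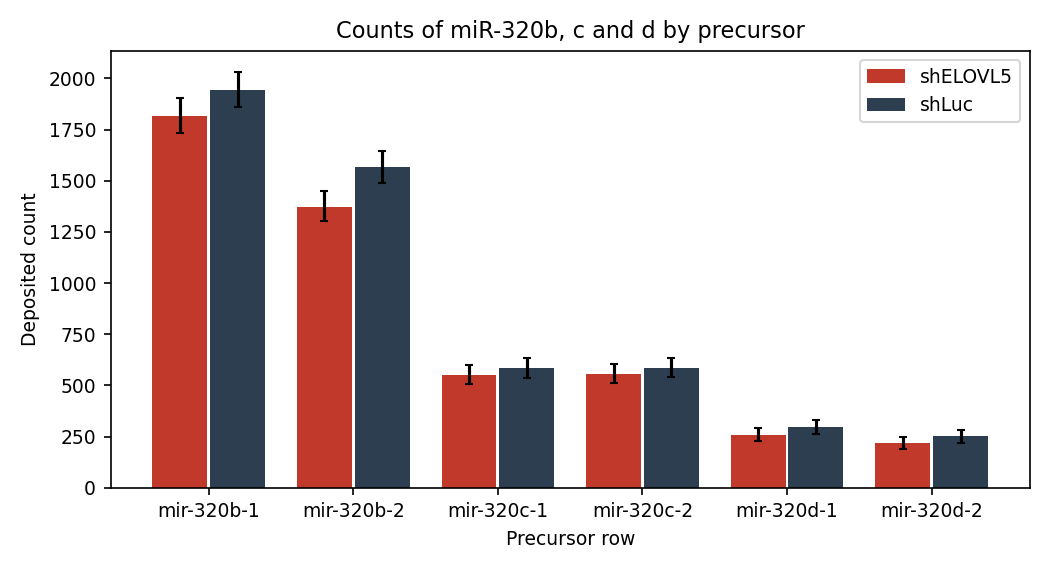
Deposited counts of hsa-miR-320b, hsa-miR-320c and hsa-miR-320d for each of their 2 precursors, in shELOVL5 (red) and shLuc (dark blue), on a linear axis from 0. Bars are single libraries and lines are 95% exact Poisson counting intervals. The precursors of miR-320c are level, while the first precursor of miR-320b stands above the second in both libraries (1817 against 1374 and 1945 against 1565).

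Other microRNAs close to the family were scarce. hsa-miR-320e, which starts 1 base later and so has another seed, was counted 40 times in shELOVL5 and 32 times in shLuc, a ratio of 1.27 (0.779 to 2.09). hsa-miR-4429, whose seed is that of miR-320 (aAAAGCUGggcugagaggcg), had 9 and 12 counts. The other arm of the miR-320a hairpin, hsa-miR-320a-5p, had 13 counts in shELOVL5 and 6 in shLuc. It made up 0.0634% (0.0337 to 0.108%) of both arms in shELOVL5 and 0.0266% (0.00976 to 0.0579%) in shLuc, and these intervals overlap. In both libraries nearly all of the miR-320a hairpin was therefore counted as the 3p arm.

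hsa-miR-484 showed the lowest ratio of the 5 expressed members. It was counted 7566 times (1097 CPM) in shELOVL5, at rank 64, and 9080 times (1293 CPM) in shLuc, at rank 60. The ratio was 0.848 (0.823 to 0.875), or 1.18-fold lower in shELOVL5. It lay at percentile 19.4 of the ratios of the 191 expressed microRNAs. Per 100 counts of hsa-miR-320a-3p there were 36.9 of hsa-miR-484 in shELOVL5 and 40.2 in shLuc, a ratio of these of 0.917 (0.885 to 0.951). The lower level of hsa-miR-484 in shELOVL5 thus went beyond that of hsa-miR-320a-3p by more than counting error. hsa-miR-3155a and hsa-miR-3155b, which share its seed, were at 0 counts in either library, a count that leaves room for 0.435 CPM (shELOVL5) or 0.427 CPM (shLuc).

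hsa-miR-486-5p, a red blood cell marker, was lower in shELOVL5 too, with 2146 and 2788 counts and a ratio of 0.784 (0.740 to 0.829). The 6 blood markers summed to 2281 counts in shELOVL5 and 2798 in shLuc, a ratio of 0.830 (0.785 to 0.877). Most of both sums is hsa-miR-486-5p. The other 3 that were detected were higher in shELOVL5, hsa-miR-142-5p with 84 and 6 counts, hsa-miR-142-3p with 45 and 2 (ratio 22.9, 5.98 to 195) and hsa-miR-451a, the defining red cell microRNA, with 6 and 2 (ratio 3.05, 0.546 to 30.9). hsa-miR-144-3p and hsa-miR-223-3p had 0 counts in both. Whether these markers have a part in the values of miR-320a or miR-484 was not tested.

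The mirtron miR-877 went the other way from miR-320a and miR-484 in its main arm. hsa-miR-877-5p was counted 719 times (104 CPM) in shELOVL5, at rank 158, and 578 times (82.3 CPM) in shLuc, at rank 166. The ratio was 1.27 (1.13 to 1.42), at percentile 90.1 of the expressed microRNAs. Per 100 counts of hsa-miR-484 there were 9.50 of hsa-miR-877-5p in shELOVL5 and 6.37 in shLuc, a ratio of these of 1.49 (1.33 to 1.68). Against hsa-miR-320a-3p the same measure was 1.37 (1.22 to 1.53). Within the group, hsa-miR-877-5p and the pair of hsa-miR-320a-3p and hsa-miR-484 thus lay on opposite sides of 1, apart by more than counting error. The summed stromal and endothelial markers were also higher in shELOVL5, with 5189 and 4408 counts and a ratio of 1.20. Of these, hsa-miR-126-3p gave 5175 and 4394, hsa-miR-143-3p 11 and 12, and hsa-miR-145-5p 3 and 2, and their part in the value of miR-877 was not tested.

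The minor arm of the hairpin did not share this. For hsa-miR-877-3p the counts were 61 (8.84 CPM) in shELOVL5 and 78 (11.1 CPM) in shLuc, a ratio of 0.796 (0.560 to 1.13) whose interval includes 1. Its share of both arms was 7.82% (6.03 to 9.93%) in shELOVL5 and 11.9% (9.51 to 14.6%) in shLuc. The 3p to 5p ratio was 0.629 (0.434 to 0.908) times that of shLuc, so the arms differed from each other beyond counting error. A shift of this size was not rare among the hairpins of the table. The log2 change of the minor to major arm was taken for 190 hairpins with at least 100 counts and both arms counted in each library. In 45 (23.7%), miR-877 included, it was at least as large in either direction as the -0.67 of miR-877. In 18 (9.47%), again with miR-877, it was as low. Hairpins that share a mature microRNA took the same count for it, so the 190 are not all separate measurements. These hairpins were not matched for minor-arm counts, and few counts widen such changes by counting error alone. Summed over both arms, miR-877 had 780 and 656 counts and a ratio of 1.21 (1.09 to 1.34).

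The mirtron miR-1226 was detected far below the expression limit. hsa-miR-1226-3p was counted 33 times (4.78 CPM) in shELOVL5 and 38 times (5.41 CPM) in shLuc, a ratio of 0.884 (0.537 to 1.45). hsa-miR-1226-5p, its other arm, had 15 and 10 counts. The hairpin summed to 48 counts in each library, a ratio of 1.02 (0.668 to 1.55). The 5p arm made up 31.2% (18.7 to 46.3%) of it in shELOVL5 and 20.8% (10.5 to 35.0%) in shLuc. These counts leave room for a difference of up to 1.55-fold upward in miR-1226, so whether the 2 mirtrons went the same way was not detectable. Set against hsa-miR-877-5p, hsa-miR-1226-3p had a ratio of 0.698 (0.419 to 1.16).

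**Figure D3:**
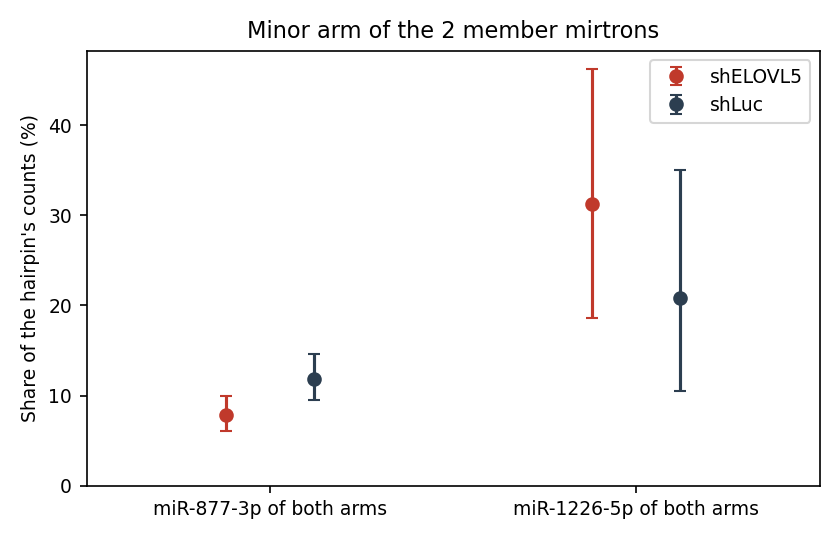
Share of the less abundant arm in the counts of the miR-877 and miR-1226 hairpins, in percent, in shELOVL5 (red) and shLuc (dark blue), with 95% exact binomial counting intervals. hsa-miR-877-3p stands at 7.82% and 11.9%, with intervals that overlap slightly, and the intervals of hsa-miR-1226-5p are wide because each library has 48 counts.

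Other mirtrons added little. Of 20 further mature mirtron microRNAs in the list, 11 had a count in either library and 0 were expressed. They summed to 39 counts in shELOVL5 and 47 in shLuc, a ratio of 0.845 (0.538 to 1.32), the most abundant after hsa-miR-1226-5p being hsa-miR-1229-3p (7 and 12 counts) and hsa-miR-1227-3p (3 and 6), level with hsa-miR-1234-3p. A wider set, the 40 listed mature microRNAs from the 23 hairpins with exact intron ends, gave 866 and 747 counts and a ratio of 1.18 (1.07 to 1.30). miR-877 alone gave 90.1% (87.9 to 92.0%) of these counts in shELOVL5 and 87.8% (85.3 to 90.1%) in shLuc. Without the 3 mirtron members the set had 53 counts in each library, a ratio of 1.02 (0.682 to 1.52). Among intron-ended hairpins, most counts in these libraries thus fell on miR-877.

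MicroRNAs cut from small nucleolar RNAs, some of which also bypass Drosha, were nearly level. The 6 listed had 339 counts in shELOVL5 and 349 in shLuc, a ratio of 0.989 (0.849 to 1.15), and 0 were expressed. hsa-miR-664a-3p gave most of them, with 256 and 265 counts and a ratio of 0.983 (0.825 to 1.17). hsa-miR-1248 had 29 and 26 counts and hsa-miR-664a-5p 19 and 24.

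Against all expressed microRNAs the group did not stand apart. Of the 5 expressed members, 1 (hsa-miR-877-5p) was at least 25% higher in shELOVL5, where 9.95% of the 191 expressed microRNAs were. The DESeq2 size factors were 1 in both libraries, so they made no correction for depth. With them in place of TMM, the ratio of hsa-miR-877-5p was 1.24, and 0 of the 5 were past that mark. A ratio of 0.8 or less, the same fold downward, was found for 0 of the 5, against 9.95%. The background shares move with the scaling, to 15.2% higher and 6.81% lower with library totals and to 9.42% and 13.1% with DESeq2. At least 2-fold higher or lower were 0 of the 5, against 1.57% and 0%. The interval lay below 1 for 2 members, hsa-miR-320a-3p and hsa-miR-484, against 41.9% of all, and above 1 for 1 member, hsa-miR-877-5p, against 31.9%. A ratio below 1 was found for 4 of the 5, against 57.1%. The median log2 ratio of the 5 was -0.072, that of all 191 was -0.033, and the middle 50% of all ran from -0.18 to 0.17. The other 3 members did not pass the limit, which uses abundance over both libraries, and all 3 had ratios below 1 with intervals that include 1.

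**Figure D4:**
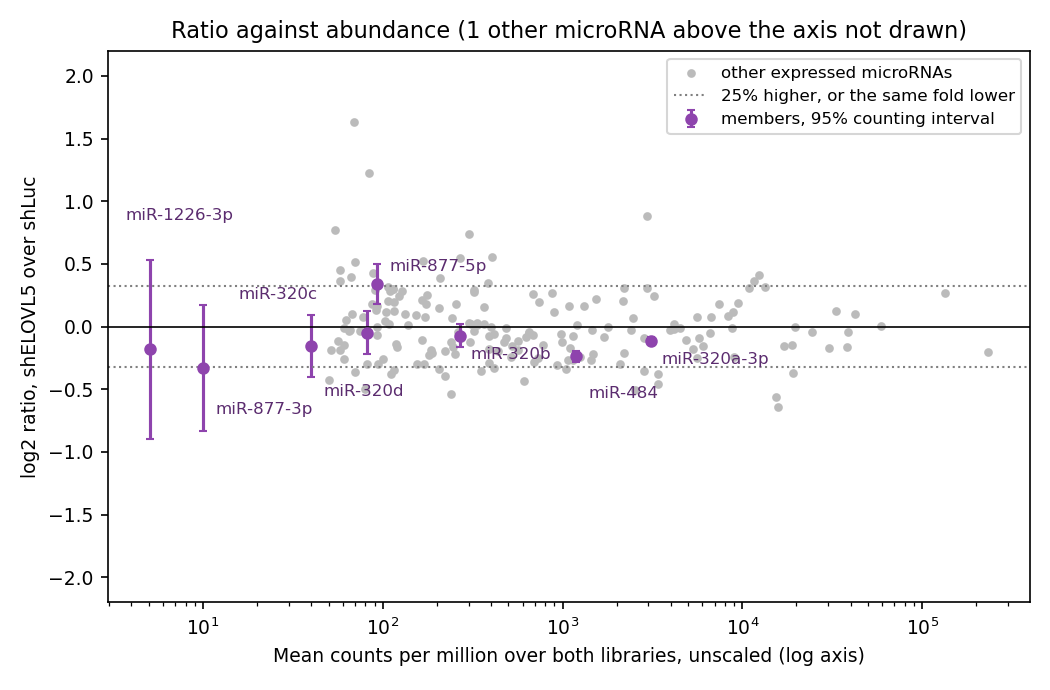
log2 ratio of shELOVL5 over shLuc against mean abundance (counts per 1000000 before scaling, log axis) for the 8 members (purple, with 95% counting intervals) and the other expressed microRNAs (grey). Dotted lines mark 25% higher and the same fold lower, and hsa-miR-504-5p, at 7.06, is above the axis. hsa-miR-877-5p at 0.34 lies just past the upper dotted line, hsa-miR-484 at -0.24 and hsa-miR-320a-3p at -0.11 lie below 0 inside the lines, and the members at the left have wide intervals.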

How the data were processed

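Small RNA reads from 1 shELOVL5 and 1 shLuc library were counted by the authors. The deposited values are raw counts per mature microRNA and precursor (2886 lines). The submitters' processing notes name FastQC 0.11.9, cutadapt 2.10 and Bowtie 1.1.1, without settings. Not given in the sources used here are the counting program, the microRNA release and how multiply matching reads were treated. The labels describe no molecular identifiers, so intervals and zero-count limits (3 counts) cover counting error only. The extraction text speaks of tumor samples, the other labels of the cell line. The highest precursor row was kept per microRNA and library. Counts were scaled with TMM factors (edgeR 4.0.16, R 4.3.3) of 1.01 for shELOVL5 and 0.988 for shLuc. Ratio intervals are exact Clopper-Pearson limits on the share of shELOVL5 in a microRNA's summed count, and those between members from the conditional odds ratio (scipy 1.17.1). Hairpin ends were matched to GENCODE introns exactly. Named microRNAs are the 8 members, their other arms, hsa-miR-451a, and at most the 3 with most counts of each further list. Outside that rule, and named with their values known, are hsa-miR-320e, hsa-miR-1234-3p, hsa-miR-504-5p and the other markers of the line, of blood and of stroma. The members and lists were chosen with earlier results of these data known, and the ratios between members and the exact-intron set were added later. On counts simulated for shELOVL5 over shLuc with counting noise only, a 2-fold rule found 100% of 97 expressed microRNAs changed 3-fold. It called 0 of 93 unchanged ones, and 94.7% of 417 intervals covered the simulated ratio. No member reached 2-fold, so this recovery does not bear on differences of the size seen here. The simulated noise is the kind that the intervals assume. Their coverage and the 0 calls therefore do not bear on the spread between cultures.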

Additional observations from a re-analysis of the deposited data

How the results depend on the processing

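No paired analysis was possible because there is a single library of either kind, which also leaves none to drop. Scaling by library totals shifted all log2 ratios by 0.036, which moved hsa-miR-320a-3p to 0.948 and the miR-320 family to 0.951, beyond their counting intervals but still below 1. Size factors from DESeq2 1.42.0 were 1 in both libraries, a shift of -0.026, and left 0 members at least 25% higher in place of 1, since hsa-miR-877-5p lies close to that fold. When 1 count per library was enough to enter, 1 of the 8 members (hsa-miR-877-3p, with few counts) had a ratio of 0.8 or less, where 24.9% of 1024 microRNAs were. The other 39 member ratios and 4 family totals tried stayed within their counting intervals. The 7 median log2 ratios ran from -0.037 (library totals) to -0.13 (1 count per library enough). They stayed within the spread of the members, as a median of members nearly always does. The arm shares had no working alternative, since each of these hairpins has 1 precursor row and summing rows changes nothing. The make-up of the miR-320 family depends on how precursor rows are joined, though alike in both libraries. Summing the rows gave hsa-miR-320a-3p 81.1% in shELOVL5 and 81.2% in shLuc, hsa-miR-320b 12.6% and 12.6%, hsa-miR-320c 4.39% and 4.21%, and hsa-miR-320d 1.89% and 1.96%. Reads counted in both rows of a microRNA would enter these sums more than once. Taking the lowest row gave hsa-miR-320a-3p 90.5% and 90.4%, hsa-miR-320b 6.07% and 6.27%, and hsa-miR-320d 0.967% and 1.01%. Depth limits hsa-miR-877-3p and miR-1226, and all ratios lack a replicate.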
